A study of Bos taurus with 10 samples.

Results

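*CDX2*, *TEAD4*, *GATA2*, *GATA3*, *TFAP2A*, *TFAP2C*, *DLX3*, *MSX2*, *ARID3A* and *ELF3* encode transcription factors of the trophectoderm (TE), the outer epithelium of the blastocyst. They were taken by symbol from a table of 20112 genes, and all 10 had values in every embryo. The table holds 10 single bovine early blastocysts, which the labels place at day 7 after fertilization and the study's methods slightly later. The 5 WT embryos (nc1 to nc5) were injected at the zygote stage with mRNA of BE3, a cytosine base editor, and received no sgRNA. The 5 *SOX2* KO embryos (ko1 to ko5) received the same mRNA together with a mixture of sgRNAs that write premature stop codons into *SOX2*. Both groups therefore carry the editor, and they differ in the sgRNAs. All embryos were produced in vitro from abattoir oocytes, the breed and sex of the embryos are not given in the sources used here, and editing in the zygote can leave a mosaic embryo.

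The trophectoderm pumps fluid into the blastocoel and later forms the fetal part of the placenta, while the inner cell mass (ICM) gives rise to epiblast and hypoblast. In the mouse, TEAD4 with its coactivator YAP switches on *Cdx2* and *Gata3* in outer cells, and CDX2 then holds pluripotency genes down. GATA2 and GATA3 are zinc finger factors, TFAP2A and TFAP2C are AP-2 factors, DLX3 and MSX2 are homeodomain factors, ARID3A binds AT-rich DNA and ELF3 is an epithelial ETS factor. In cattle the restriction of OCT4 and SOX2 to the ICM is slower than in the mouse, so early blastocysts still hold pluripotency factors in their outer cells. A whole embryo was sequenced in each library, so a change in the proportion of trophectoderm cells and a change in RNA per cell cannot be told apart. The study counted fewer cells in *SOX2* KO blastocysts, but reports similar totals for the early blastocysts it sequenced. In later *SOX2* KO blastocysts it saw fewer ICM cells and no obvious change in the number of trophectoderm cells.

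Values are normalized read counts, that is the reads of a gene divided by the size factor of its embryo. They were not divided by transcript length, so levels are compared between embryos and not between genes. Means are given ± SD over the 5 embryos of a group (n = 5). The libraries held 2223670 to 5134855 reads on genes in WT against 2578284 to 4337342 in *SOX2* KO embryos. Genes with a read numbered 15919 to 18092 in WT against 17987 to 19813 in *SOX2* KO embryos (exact permutation of embryos, two-sided, p = 0.0159). The part of this difference in the calls was not tested. *RN18S1*, an 18S ribosomal RNA gene, took 26.4% to 37.0% of WT reads and 32.5% to 45.0% of *SOX2* KO reads (exact permutation of embryos, two-sided, p = 0.0635). *SOX2* itself had 56.5 to 93.4 normalized read counts in WT against 26.4 to 82.1 in *SOX2* KO embryos, with overlapping groups (adjusted p = 0.167 by limma). Reads per gene do not show a stop codon, so this level does not check the editing. The study itself genotyped the sequenced blastocysts from a part of each cDNA library. *KRT8* and *KRT18*, keratins of the outer epithelium, had at least 6063 reads in every library.

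Of the 10 factors, *DLX3*, *ELF3* and *ARID3A* rose and *TFAP2C* fell in *SOX2* KO embryos, while the other 6 did not pass the test. Differences were fitted by limma to log2(normalized read count + 1) over 20056 genes, with p-values adjusted over all of them, and the added 1 shrinks the fold of genes with few reads. *DLX3* and *ELF3* passed both thresholds, an adjusted p no higher than 0.05 and a 2-fold change, which is 2 of 10 factors against 8.93% of all genes higher in *SOX2* KO. In the opposite direction limma called 0 of the 10 at both thresholds, as did DESeq2 and edgeR, against 1.16% of all genes, and 1 factor was lower at an unadjusted p under 0.05. On the adjusted p alone, 3 of the 10 were higher and 1 was lower, against 10.4% and 3.2% of all genes. The median log2 fold change of the 10 factors was 0.55, beside 0.25 over all genes tested. All 10 factors also passed a stricter filter that dropped genes whose mean was under 10. Over the 11334 genes it left, the median was -0.04, and 692 were called at both thresholds, 502 of them higher (72.5%). With this filter 2 of the 10 factors were called at both thresholds. The shares of all genes given here and below also count genes with fewer reads than these. Every *SOX2* KO embryo was above every WT embryo for *DLX3* and *ARID3A*, an order found in 6.41% of all genes, and the reverse order, found in 2.76% of all genes, held for none of the 10.

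**Figure D1:**
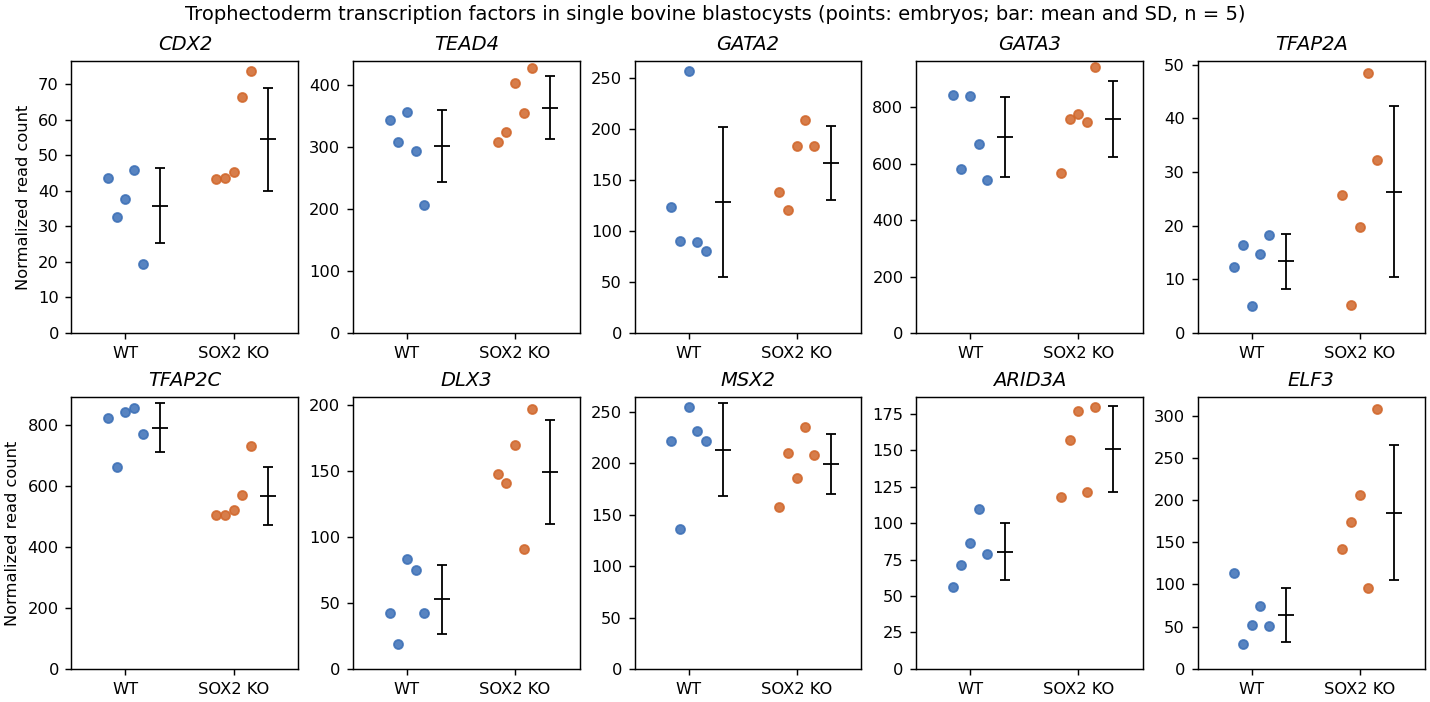
Normalized read counts (vertical axes, starting at 0) of the 10 factors in each of the 5 WT (blue) and 5 *SOX2* KO (orange) embryos, with the mean and SD of each group as a black bar. *DLX3* and *ARID3A* are the panels in which the groups do not overlap, and in the *TFAP2C* panel 4 of the 5 *SOX2* KO embryos lie below every WT embryo.

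*CDX2*, the homeodomain factor that marks trophectoderm nuclei, counted 43.5, 32.6, 37.8, 45.8 and 19.5 normalized reads in WT and 43.4, 43.6, 45.4, 66.5 and 73.8 in *SOX2* KO embryos. Only ko4 and ko5 were above the highest WT embryo, and ko1, ko2 and ko3 lay within the WT range. All 5 *SOX2* KO embryos were above the WT median of 37.8. The mean was 35.8 ± 10.5 in WT and 54.5 ± 14.5 in *SOX2* KO, with a log2 fold change of 0.61 (standard error, SE, 0.27, adjusted p = 0.127 by limma). The 95% interval of that change, unadjusted for the number of genes, ran from 0.05 to 1.18, so a rise past 2-fold is inside it and a fall is not. These levels rest on 209 reads in WT and 256 in *SOX2* KO embryos.

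*TEAD4*, which binds DNA for the Hippo pathway coactivators, had 343, 308, 356, 293 and 207 in WT and 308, 324, 404, 356 and 428 in *SOX2* KO embryos. The groups overlapped, with nc5 the lowest and ko5 the highest of all. Its log2 fold change was 0.28 (SE 0.17, adjusted p = 0.247 by limma), with a 95% interval from -0.07 to 0.63. That interval lies below a 2-fold change in both directions. The related genes *TEAD1*, *TEAD2* and *TEAD3* had log2 fold changes of -0.05, 0.47 and 0.34 (adjusted p = 0.813, 0.234 and 0.281 by limma). *TEAD1*, with 499 ± 44.6 in WT and 480 ± 22.4 in *SOX2* KO embryos, varied little within either group. Among reads of the 4 TEAD genes, *TEAD4* supplied 29.1% ± 3.80 in WT and 32.1% ± 2.52 in *SOX2* KO embryos, a ratio within each embryo that no scaling between embryos can move (exact permutation of embryos, two-sided, p = 0.151, adjusted p = 0.226 over 3 such shares).

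*GATA3*, which acts beside CDX2 in the trophectoderm, had 845, 580, 839, 671 and 542 in WT and 566, 759, 777, 750 and 944 in *SOX2* KO embryos. The *SOX2* KO embryos were spread over the whole WT range, and only ko5 was above it. Its change was 0.13 on the log2 scale (SE 0.17, adjusted p = 0.617 by limma), with a 95% interval from -0.22 to 0.49, and the value rests on 391 to 1107 reads per embryo. *GATA2*, its closest relative, had 124, 90.5, 257, 89.4 and 80.3 in WT and 138, 120, 184, 209 and 183 in *SOX2* KO embryos. A single WT embryo, nc3, was above every *SOX2* KO embryo, whereas 4 of the 5 *SOX2* KO embryos were above the other 4 WT embryos. Over all 10 embryos the log2 fold change was 0.50 (SE 0.26, adjusted p = 0.188 by limma). Without nc3 it was 0.78 (adjusted p = 0.0157 by limma), so this embryo decides whether *GATA2* passes the test on the adjusted p.

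The share of *GATA3* in the reads of both genes was 87.2%, 86.5%, 76.6%, 88.2% and 87.1% in WT and 80.4%, 86.3%, 80.9%, 78.2% and 83.7% in *SOX2* KO embryos. The *SOX2* KO embryos were all below the 4 WT embryos other than nc3. The mean difference was -3.22 percentage points (exact permutation of embryos, two-sided, p = 0.254, adjusted p = 0.254 over 3 shares). Without nc3 it was -5.36 points (exact permutation test, adjusted p = 0.0476). This was the only one of the 10 fits with 1 embryo left out that passed (exact permutation test, adjusted p up to 0.437). Of the 4 other GATA genes, *GATA5*, a factor of endoderm and heart, rose from 5.56 ± 3.78 to 24.3 ± 10.4, a log2 fold change of 2.01 (SE 0.50, adjusted p = 0.0141 by limma), with overlapping groups and 29 reads in all of WT. Without ko5 its limma adjusted p was 0.0517, and with quantile normalization its log2 fold change was 1.37 (limma adjusted p = 0.135). *GATA6*, which is needed for the hypoblast, had a log2 fold change of -0.12 (adjusted p = 0.584 by limma), and *GATA1* and *GATA4* were not called.

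*TFAP2C*, the AP-2 factor that in the mouse acts upstream of *Cdx2*, had 823, 661, 843, 856 and 769 in WT and 503, 503, 522, 570 and 729 in *SOX2* KO embryos. The embryos ko1 to ko4 were all below the lowest WT embryo, nc2, and ko5 lay within the WT range. The mean fell from 791 ± 79.5 to 565 ± 95.3, with a log2 fold change of -0.49 (SE 0.15, adjusted p = 0.0352 by limma), which is 0.711 of the WT level and short of the 2-fold threshold. The fall rests on 4778 reads in WT and 2608 in *SOX2* KO embryos. It lost its call in 6 of 10 fits on 9 embryos, namely those without nc1, nc4, nc5, ko1, ko2 or ko3, with limma adjusted p up to 0.0879. Across those 10 fits its log2 fold change stayed between -0.59 and -0.45. It was the only one of the 10 factors called lower.

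*TFAP2A*, the AP-2 factor of surface ectoderm and trophoblast, was the factor with the fewest reads, 4 to 59 per embryo. It had 12.2, 16.3, 4.97, 14.8 and 18.3 in WT and 25.6, 5.28, 19.8, 48.5 and 32.3 in *SOX2* KO embryos. All *SOX2* KO embryos except ko2 were above the highest WT embryo. Its log2 fold change was 0.76 (SE 0.48, adjusted p = 0.284 by limma), and the 95% interval from -0.25 to 1.76 holds both no change and a rise past 2-fold. Within the reads of both AP-2 genes, *TFAP2A* took 1.69% ± 0.739 in WT and 4.32% ± 2.44 in *SOX2* KO embryos (exact permutation of embryos, two-sided, p = 0.0476, adjusted p = 0.143 over 3 shares). That difference passed before but not after the adjustment. Without ko2, the only *SOX2* KO embryo within the WT range of this share, the difference was 3.45 percentage points (exact permutation test, adjusted p = 0.0238). This was the only one of the 10 fits with 1 embryo left out that passed. Across those fits the difference ran from 1.75 to 3.45 points (exact permutation test, adjusted p up to 0.262). The other AP-2 genes, *TFAP2B*, *TFAP2D* and *TFAP2E*, had log2 fold changes of 1.22, 1.54 and 0.74 at few reads (adjusted p = 0.187, 0.0609 and 0.373 by limma).

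**Figure D2:**
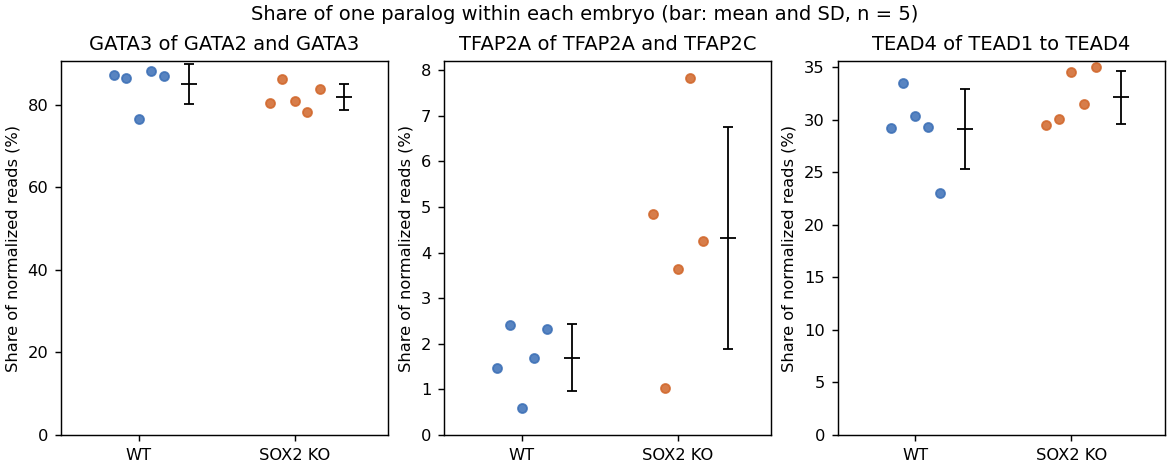
Share of normalized reads, in percent (vertical axes, starting at 0), that *GATA3* took of *GATA2* and *GATA3*, *TFAP2A* of *TFAP2A* and *TFAP2C*, and *TEAD4* of *TEAD1* to *TEAD4*, in each WT (blue) and *SOX2* KO (orange) embryo, with mean and SD as a black bar. The WT embryo nc3 lies apart in the first panel at 76.6%, and the *SOX2* KO embryos range from 1.04% to 7.84% in the second.

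*DLX3*, a homeodomain factor required for the mouse placenta, rose in *SOX2* KO embryos. It had 42.7, 19.3, 83.5, 75.4 and 42.5 in WT and 148, 141, 170, 91.2 and 197 in *SOX2* KO embryos. Every *SOX2* KO embryo was above every WT embryo, with the narrowest gap between nc3 and ko4. Its log2 fold change reached 1.61 (SE 0.31, adjusted p = 0.00283 by limma), that is 3.05-fold with a 95% interval from 1.96-fold to 4.76-fold. It stayed between 1.30 and 1.82 in the 10 fits that left out 1 embryo, with limma adjusted p of at most 0.0136.

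*DLX4*, which the RefSeq annotation of ARS-UCD2.0 lists as the next protein-coding gene after *DLX3*, rose as well. It had 54.2, 20.8, 46.7, 55.9 and 36.0 in WT and 76.8, 91.1, 74.4, 90.4 and 107 in *SOX2* KO embryos, without overlap, and the log2 change came to 1.09 (SE 0.25, adjusted p = 0.00968 by limma). The other DLX genes analysed, *DLX5* and *DLX6*, had at most 5.97 normalized read counts in WT embryos and log2 fold changes of 0.16 and 0.13 (adjusted p = 0.877 and 0.890 by limma). *DLX1* and *DLX2* were not analysed here.

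*MSX2*, a homeodomain factor of the Msx family, had 221, 136, 255, 232 and 222 in WT and 157, 210, 186, 235 and 208 in *SOX2* KO embryos. The *SOX2* KO embryos all lay within the WT range, and nc2 was below the other WT embryos. Its log2 fold change was -0.08 (SE 0.18, adjusted p = 0.792 by limma), with a 95% interval from -0.46 to 0.30. Its sign turned when each embryo was scaled by the median log ratio of well-expressed genes. *MSX1*, the related gene, rose from 6.87, 8.90, 1.99, 7.77 and 20.1 in WT to 39.0, 44.9, 75.6, 23.0 and 18.4 in *SOX2* KO embryos. Its groups overlapped, since ko5 was below nc5, and its log2 fold change was 2.11 (SE 0.47, adjusted p = 0.00808 by limma). Of the pair, *MSX1* was called and *MSX2* was not, but the difference between their changes was not tested.

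*ARID3A*, a factor that in the mouse favours trophectoderm over pluripotent fate, had 56.5, 71.2, 86.5, 110 and 78.5 in WT and 118, 157, 177, 122 and 180 in *SOX2* KO embryos. The groups did not overlap, with nc4 and ko1 the nearest to each other. On the log2 scale the change was 0.91 (SE 0.20, adjusted p = 0.00792 by limma), a fold of 1.88 with a 95% interval from 1.40 to 2.51, which misses the 2-fold threshold. *ARID3B* had a log2 fold change of 0.22 (adjusted p = 0.477 by limma). *ARID3C*, with at most 6.92 normalized read counts in any embryo, had 1.03 (adjusted p = 0.175 by limma).

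*ELF3*, an ETS factor of differentiating epithelia, had 114, 29.7, 51.7, 74.6 and 51.4 in WT and 143, 174, 206, 95.3 and 308 in *SOX2* KO embryos. The groups overlapped through nc1 and ko4, and the other 4 *SOX2* KO embryos were above every WT embryo. On the log2 scale it changed by 1.54 (SE 0.31, adjusted p = 0.00379 by limma), that is 2.92-fold with a 95% interval from 1.87-fold to 4.55-fold. *ELF2*, a broadly expressed ETS factor, went the other way, from 292 ± 27.5 to 198 ± 21.7 without overlap (log2 fold change -0.56, limma adjusted p = 0.0188). Without ko5 the limma adjusted p of *ELF2* was 0.0568. *EHF*, the epithelial relative of *ELF3*, was listed at 0 in 3 WT embryos and at 2.98 and 2.95 in the others. It had 23.4, 6.60, 14.0, 0 and 9.22 in *SOX2* KO embryos (adjusted p = 0.0577 by limma). *ELF5*, a trophoblast stem cell factor in the mouse, had 4.06 ± 2.07 in WT and 6.09 ± 0.685 in *SOX2* KO embryos (adjusted p = 0.415 by limma).

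**Figure D3:**
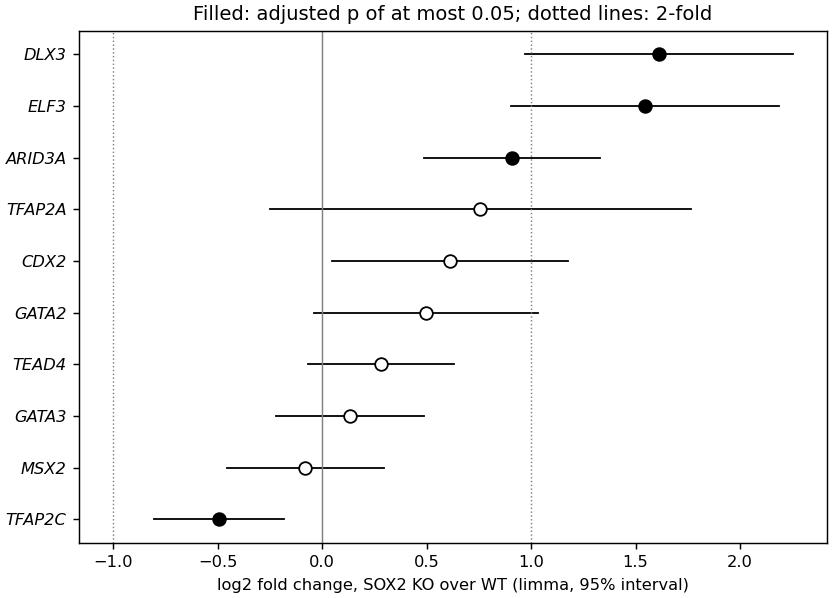
The log2 fold change of each factor (horizontal axis, *SOX2* KO over WT, from limma) with its 95% interval, ordered by size. *DLX3*, *ELF3* and *ARID3A* at the top and *TFAP2C* at the bottom are filled, for an adjusted p of at most 0.05, and the dotted lines mark 2-fold.

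The factors varied together within the groups only in part. Within the WT group, nc2 and nc5 were each the lowest embryo for 4 factors, *TFAP2C*, *DLX3*, *MSX2* and *ELF3* for nc2 and *CDX2*, *GATA2*, *GATA3* and *TEAD4* for nc5. Their libraries were the smallest and the largest of all 10, with 2223670 and 5134855 reads. Within the *SOX2* KO group, ko5 was the highest embryo for 7 of the 10 factors, the exceptions being *GATA2*, *TFAP2A* and *MSX2*, which were highest in ko4. The embryo ko5 also had the highest share of *RN18S1* reads, 45.0%, and nc5 the lowest, 26.4%. With that share as a covariate in limma, the log2 fold changes of *DLX3*, *ELF3* and *ARID3A* were 0.96, 0.92 and 0.72 (adjusted p = 0.172, 0.201 and 0.184 by limma). *TFAP2C* then had -0.68 (adjusted p = 0.0585 by limma). No factor kept its call in that fit, although the same 4 had an unadjusted p under 0.05. The share correlates with the group at r = 0.62 over the 10 embryos, and its part in these results was not tested further.

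After the mean of each group was subtracted from the log2 values, the Pearson r of the 45 pairs of factors over the 10 embryos had a median of 0.37, and 38 pairs were above 0. The highest were those of *TEAD4* with *GATA3* at 0.82 and with *CDX2* at 0.77. The lowest was that of *TFAP2A* with *DLX3* at -0.37. These points share their libraries and size factors, and with 10 embryos they are given as a description. By the same measure, of 6982 genes whose mean reached 50, the nearest to *CDX2* were *IQSEC1* (0.93), *USP19* (0.93) and *CARNS1* (0.91). The nearest to *GATA3* of 6981 genes were *UBR4* (0.97), *KDM6B* (0.93) and *SIGIRR* (0.92). They were picked as the highest of so many values over 10 embryos.

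Genes related to the factors were then counted by list, as a description, since the lists were chosen with earlier results of these data known. Of all genes tested, 8.93% were higher and 1.16% lower at both thresholds, and 10.4% and 3.2% on the adjusted p alone. Of 25 paralogs of the factors, 22 were tested; *GATA5*, *DLX4* and *MSX1* were called higher at both thresholds and *ELF2* was lower on the adjusted p alone. The other 18 did not pass, and the median log2 fold change of the 22 was 0.44. With that *RN18S1* share as a covariate, *MSX1* kept its call and *GATA5*, *DLX4* and *ELF2* lost theirs (adjusted p = 0.270, 0.230 and 0.175 by limma). *CDX1* was not analysed here either. Of 21 tested regulators of the trophoblast outside these families, *GCM1* fell and *OVOL1* rose, and the other 19 did not pass. The median of this list was 0.11.

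*GCM1*, which drives the formation of the syncytiotrophoblast in mouse and human placenta, had 38.9, 38.6, 32.8, 45.8 and 28.9 in WT and 4.45, 2.64, 3.49, 0 and 1.15 in *SOX2* KO embryos. The groups were far apart, with 218 reads in WT and 10 in *SOX2* KO embryos. The log2 change came to -3.71 (SE 0.48, adjusted p = 8.31e-05 by limma), and the call held in all 10 fits that left out 1 embryo and with *RN18S1* share as a covariate. The size of the fall depends on the constant added to these few reads, with -4.70 for a pseudocount of 0.1 and -2.54 for a pseudocount of 5. *OVOL1*, a zinc finger factor of epithelia and trophoblast, had at most 38.9 in WT and at least 50 in *SOX2* KO embryos (log2 fold change 0.86, limma adjusted p = 0.0249). Without nc2, nc4, ko1 or ko5 the call of *OVOL1* was lost, with limma adjusted p up to 0.0724, as it was with equal totals (0.0591) and with *RN18S1* share as a covariate (0.298). *EOMES*, which in the mouse is needed for trophoblast stem cells, had at most 3 reads in any embryo.

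Of 21 genes of the Hippo pathway and of cell polarity, which set the activity of TEAD4, 19 did not pass, and the median log2 fold change was -0.08. Over all genes tested, 10.4% were higher and 3.2% lower on the adjusted p alone. *PRKCI*, an atypical protein kinase C of the apical domain, fell from 272 ± 22.0 to 134 ± 18.9, without overlap (log2 fold change -1.02, SE 0.16, adjusted p = 0.00043 by limma). *NF2*, which activates the Hippo kinases, rose from 179 ± 27.0 to 305 ± 46.2, also without overlap (log2 fold change 0.77, limma adjusted p = 0.00551). With *RN18S1* share as a covariate *PRKCI* kept its call and *NF2* lost it (adjusted p = 0.0187 and 0.146 by limma). The coactivator genes *YAP1* and *WWTR1* were not called (adjusted p = 0.225 and 0.114 by limma).

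Of 30 tested products of the trophectoderm, 10 were higher and 1 was lower on the adjusted p alone, and 19 did not pass. Over all genes tested the shares were 10.4% higher and 3.2% lower. At both thresholds 5 were higher and 1 was lower, against 8.93% and 1.16% of all genes. The list was chosen with earlier results of these data known, and the study itself names *PAG2* as higher, so these counts are a description. The median log2 fold change of the list was 0.53. Beside *PAG2* and *HSD3B1*, the higher genes included the keratins *KRT18* and *KRT19*, the claudins *CLDN4* and *CLDN7* of tight junctions, the desmosomal *DSP*, *SFN* and *PTGES*. *PTGES*, a prostaglandin E synthase, had 113, 78.6, 97.4, 88.6 and 133 in WT and 403, 301, 559, 628 and 564 in *SOX2* KO embryos, without overlap (log2 fold change 2.23, SE 0.20, adjusted p = 1.27e-06 by limma). *HSD3B1*, an enzyme of steroid synthesis, had 48.8, 13.3, 29.8, 82.4 and 144 in WT and 1424, 956, 913, 281 and 922 in *SOX2* KO embryos (log2 fold change 4.04, SE 0.46, adjusted p = 1.8e-05 by limma). *PAG2*, a pregnancy-associated glycoprotein whose reads could be shared with other members of a large family, went from 89.2 ± 55.1 to 357 ± 65.9, also without overlap (log2 fold change 2.14, SE 0.26, adjusted p = 5.44e-05 by limma). *KRT19* went from 595 ± 319 to 1487 ± 584 (limma adjusted p = 0.00793) and *SFN* from 431 ± 169 to 1068 ± 251 (limma adjusted p = 0.000841). The calls of *KRT18* and *DSP* were lost in 7 and 6 of the 10 fits on 9 embryos, between them those without nc1, nc2, nc4, nc5, ko1, ko2, ko3 or ko5. Of the 13 other settings, the *KRT18* call was lost in 6 and the *DSP* call in 7. Both were lost with equal totals (adjusted p = 0.0597 and 0.0794 by limma). That of *CLDN7* was lost without ko3 or ko5. With *RN18S1* share as a covariate *PTGES*, *HSD3B1*, *PAG2*, *SFN* and *KRT7* kept their calls, and *KRT18*, *KRT19*, *CLDN4*, *CLDN7* and *DSP* lost theirs (limma adjusted p from 0.120 to 0.707). *KRT7*, a simple-epithelial keratin, fell from 197, 133, 70.6, 177 and 149 in WT to 34.5, 38.3, 46.5, 2.46 and 41.5 in *SOX2* KO embryos, without overlap (log2 fold change -2.47, SE 0.51, adjusted p = 0.00484 by limma). *KRT8*, *CDH1*, *AQP3* and *TJP1* did not pass (adjusted p = 0.352, 0.734, 0.951 and 0.551 by limma).

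**Figure D4:**
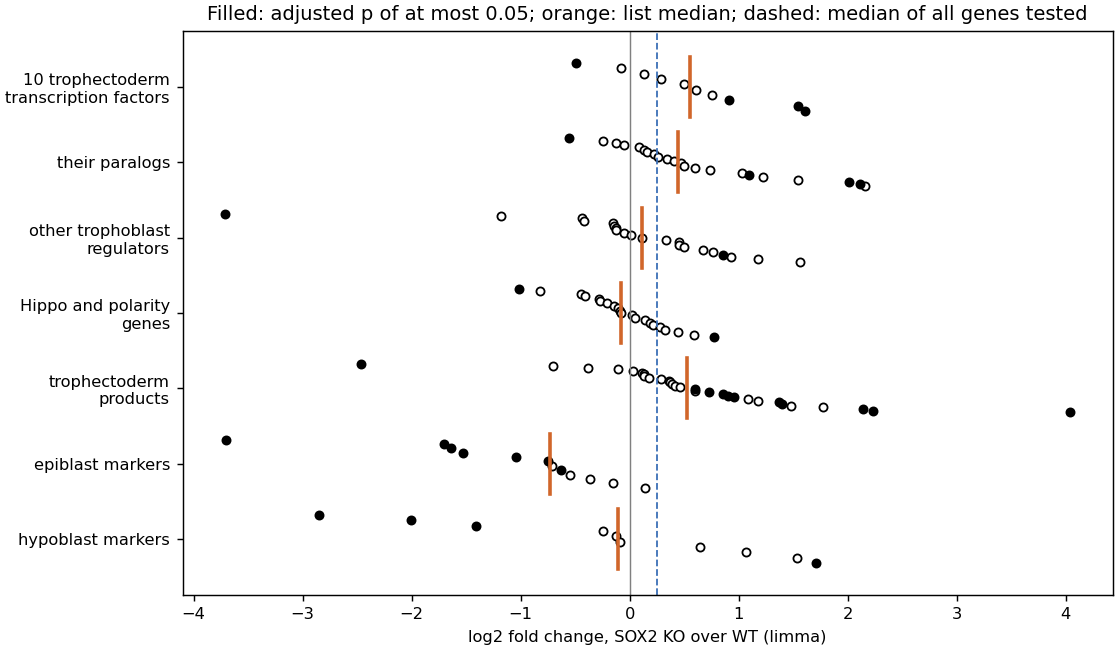
The log2 fold change (horizontal axis, *SOX2* KO over WT, from limma) of each gene of 7 lists, filled where the adjusted p is at most 0.05, with list medians in orange and the median of all genes tested, 0.25, as a dashed line. The factors, their paralogs and the trophectoderm products have medians of 0.55, 0.44 and 0.53, and the epiblast markers have a median of -0.73.

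Markers of the other lineages were counted beside the factors. Over all genes tested, 10.4% were higher and 3.2% lower on the adjusted p alone. Of 12 epiblast markers, 7 were lower on the adjusted p and none was higher by limma, DESeq2 or edgeR or at an unadjusted p under 0.05, and their summed normalized read counts were 2977 to 3414 in WT against 1545 to 2019 in *SOX2* KO embryos. Of 10 hypoblast markers, those lower included *PDGFRA* and *HNF4A*, and *APOA1* was higher, and the summed level was 1700 to 2124 in WT against 1936 to 2146 in *SOX2* KO embryos. Of 8 markers of cumulus cells, which surround the oocyte, limma, DESeq2 and edgeR (which tested 2) called 0, 1 had an unadjusted limma p under 0.05, and the summed level was 10.4 to 62.9 in WT against 32.9 to 71.3 in *SOX2* KO embryos. *FOXL2*, a defining gene of follicular somatic cells, had at most 4.11 in any embryo. Of the epiblast list, the study saw the proteins of *SOX2*, *NANOG* and *POU5F1* (OCT4) in both trophectoderm and ICM at this stage. A lower level of these genes therefore need not mean fewer epiblast cells. The fall in the listed epiblast markers moved with the group, and its part in the values of the 10 factors was not tested.

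**Figure D5:**
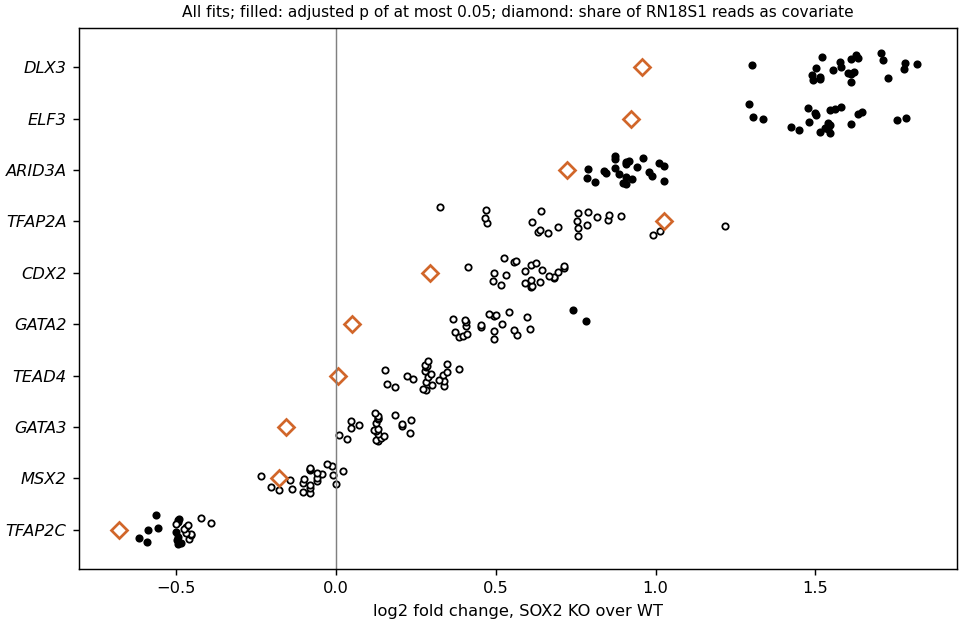
The log2 fold change of each factor (horizontal axis) in every fit that was run, with filled points for an adjusted p of at most 0.05 and a diamond for the fit with *RN18S1* share as a covariate. *DLX3*, *ELF3* and *ARID3A* are filled in all fits except that with the covariate, and the points of *MSX2* lie on both sides of 0.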

How the data were processed

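Single embryos were sequenced after Smart-seq2, which amplifies polyadenylated RNA without molecular identifiers. The authors used Trimmomatic for trimming, Hisat2 for alignment to the ARS-UCD1.2 build and featureCounts for counting, and deposited a normalized signal, which is a read count scaled by a DESeq2 size factor. Annotation release, strand setting and treatment of multi-mapping reads are not given in the sources used here, so reads of paralogs and overlapping genes could be shared. In each embryo the values were multiples of a single step, which gave whole reads for 201120 of 201120 values (100%, tolerance 0.01 reads). Columns were assigned to groups by name. Embryos are not traced to cows or batches, so p-values measure only the spread between these embryos.

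limma (version 3.58.1, eBayes with a trend, R 4.3.3) was fitted on log2(normalized read count + 1) over 20056 genes with a mean of at least 1 and adjusted by Benjamini-Hochberg. DESeq2 (version 1.42.0) and edgeR (version 4.0.16, quasi-likelihood) on recovered reads, other pseudocounts, scalings, filters and weights, a covariate and leaving out embryos were alternatives; the fits were tested on simulated data. Shares were compared by exact permutation of embryos (Python 3.11.15). The 10 factors and the lists were chosen with earlier results of these data known. All factors were named, and listed genes where called at an adjusted p of 0.05 or as paralogs; *YAP1*, *WWTR1*, *EOMES*, *FOXL2*, *KRT8*, *CDH1*, *AQP3* and *TJP1* were added after their values were seen. No sequence was used, and of the RefSeq annotation (ARS-UCD2.0) only symbols and gene order. Some listed genes are not reported here by name.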

Additional observations from a re-analysis of the deposited data

Results flagged for a closer look

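Over 32 sets of 5 values, 3 held a value far from its other 4, and chance alone gives about 1.6. *GATA2* had 257 normalized read counts in the WT embryo nc3 and 80.3 to 124 in the other WT embryos. The share of *GATA3* in the reads of *GATA2* and *GATA3* was 76.6% in the same embryo and 86.5% to 88.2% in the other WT embryos, which is the same departure seen as a ratio. *MSX2* had 136 in the WT embryo nc2, whose library was the smallest, and 221 to 255 in the other WT embryos. The cause was not tested for either embryo.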

How the results depend on the processing

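At both thresholds 2 of the 10 factors were called, and 2 or 3 with each embryo left out. On the adjusted p alone it was 4, and 3 to 5 with each embryo left out. With *RN18S1* share as a covariate both counts were 0 (4 factors at an unadjusted p under 0.05), 12 listed genes were called instead of 20, and 220 genes were called in all instead of 2024. The total was 3515 with quality weights, 608 with edgeR (11176 genes tested), 692 for genes with a mean of at least 10 (11334 tested), 1185 with a pseudocount of 5, 1076 with quantile normalization and 1135 without nc3 and ko5, a choice made after seeing the data; for these the cause was not tested beyond the numbers of genes and embryos. With 1 embryo left out it was 930 (without ko5) to 3316 (without ko4), and 16 to 26 listed genes were called. The part of higher calls, 88.5%, was 58.5% with quantile normalization, 62.3% with the covariate, 72.5% with edgeR and 72.5% for genes with a mean of at least 10. The median of all genes, 0.25, was 0.14 with equal totals and -0.02 with quantile normalization. *GATA3* turned to -0.16 with the covariate, and *MSX2* to 0.023 with the median log ratio and to between -0.23 and 0.0020 with 1 embryo left out (above 0 without ko1), all far from the threshold. The call of *TFAP2C* was also lost with edgeR, the median log ratio and quantile normalization (adjusted p = 0.0598, 0.0763 and 0.0710). The shares differed by -5.36 to -2.30 (*GATA3*), 1.75 to 3.45 (*TFAP2A*) and 1.53 to 4.15 (*TEAD4*) points with 1 embryo left out. No paired analysis was possible because the *SOX2* KO columns and their labels are numbered differently and no source used here pairs the embryos. No *SOX2* KO column could be matched to a single labelled embryo, and matching alone would not have given pairs.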
